A study of Mus musculus with 4 samples.

Results

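The forkhead transcription factors are a family of 43 mouse genes, from Foxa1 to Foxs1, named for the DNA-binding domain they share. They were followed in a list of Zeb1 peaks from mouse embryonic stem cells (mESC), and a peak was counted for a gene when the authors had assigned it to that gene symbol. Of the 17435 peaks in the list, 74 were assigned to 37 of the 43 genes, and the other 6 genes had no assigned peak. Zeb1 was mapped by chromatin immunoprecipitation followed by sequencing (ChIP-seq), in which an antibody recovers the DNA bound by a protein. The libraries were 3 Zeb1 ChIP libraries, made with 8 μg of the Zeb1 antibody H-102, and 1 input library of chromatin that saw no antibody. Both groups came from D3 mESC, an established line, at passages 5 to 8, in ground state medium (GS). GS is the serum-free N2B27 with 1 μM PD0325901, an inhibitor of MEK, 3 μM CHIR99021, an inhibitor of GSK-3, and 20 ng/mL LIF. Cells were fixed in 1% formaldehyde, chromatin was sheared to about 200 bp, and at least 20 M raw reads per library were aimed at. The deposited list holds, for each peak, the authors' mean of treatment reads, of input reads and of the enrichment over input. The list calls its scores means over replicates, and the paper states that values per sample were averaged, with read coverage first scaled to equal depth. How many values stand behind each mean is not stated, and some read means, as for Foxa2 and Foxj2, are not a whole number divided by 3. The treatment and input means of a peak, as 104.778 and 23.7778 at Foxa2, have the form of whole numbers over a shared divisor. This divisor differs between peaks, and reads scaled to equal depth would not in general have this form. Which libraries entered a mean is still not told. The read means are not read here as plain means of the counts of the 3 libraries. The list gives no value per library, so no SD, test between libraries or depth per library accompanies the values, and the 3 Zeb1 ChIP libraries cannot be set side by side.

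Forkhead proteins bind DNA through a winged helix domain whose core motif is TGTTTAC. FoxA proteins are pioneer factors that open chromatin for endoderm and liver genes, FoxC, FoxD and FoxF genes pattern mesoderm and neural crest, and FoxO proteins answer to insulin signalling. Foxd3 and Foxh1 also act in the early embryo, Foxd3 in the epiblast and stem cells and Foxh1 with Smad proteins downstream of Nodal. Zeb1 is a zinc finger repressor, best known from the epithelial to mesenchymal transition, that binds E-box-like sites with the core CACCTG.

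An assigned peak was present in 86.0% of forkhead genes, against 53.3% of the 21000 protein-coding genes of the reference. A peak centred within 5 kb of the transcription start site (TSS), called a promoter peak here, was present in 35 of the 43 genes, or 81.4%, against 45.1% of all coding genes. When any peak within 5 kb of a TSS was counted, whatever gene the authors had given it, the numbers were 37 of 43 for the forkhead genes and 51.5% for all genes. Foxa3 and Foxm1 entered in this way. At least 3 assigned peaks were present in 11 forkhead genes, or 25.6%, against 4.59% of all genes. Foxd3 and Foxl1 had the most, with 5 each, and 17 forkhead genes had a single peak. Other families of developmental regulators stood at like shares for promoter peaks. Among Sox genes 17 of 19 had a promoter peak, among T-box genes 13 of 17 and among Pax genes 7 of 9. The plot of the shares by gene set shows these families beside all genes. At least 3 assigned peaks were present in 26.3% of Sox, 29.4% of T-box and 33.3% of Pax genes, so this share too was like that of forkhead genes or higher. These families were not tested against each other.

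**Figure D1:**
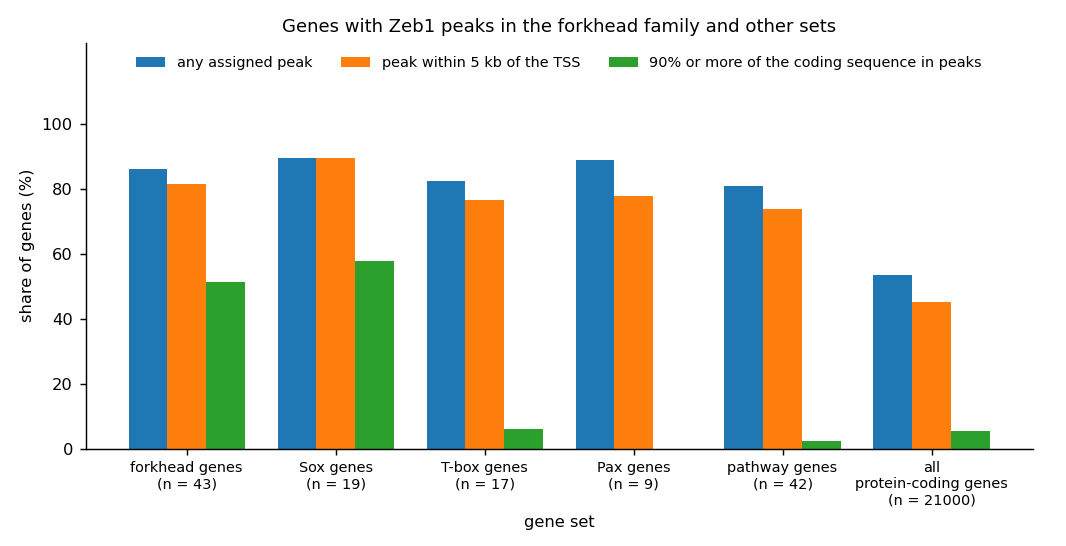
Share of genes (%, bars from 0) with any assigned Zeb1 peak, with a promoter peak, and with at least 90% of the coding sequence inside peaks, for the forkhead genes, 3 other families, the other genes of forkhead pathways and all coding genes. The forkhead bars stand at 86.0, 81.4 and 51.2%, and those of all coding genes at 53.3, 45.1 and 5.33%.

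Enrichment is the authors' ratio of treatment to input, which they normalized for mapped reads, so it is not the plain quotient of the read means printed here. The 74 forkhead peaks had a median enrichment of 8.07, with quartiles of 5.64 and 10.3, and all 17435 peaks had a median of 6.5. Of the list, 70.7% of peaks had a lower enrichment than this forkhead median. Promoter peaks are taken by the deposited distance. The 43 forkhead promoter peaks had a median of 8.81 against 6.74 for all 10698 promoter peaks. The 31 forkhead peaks deposited as beyond 5 kb had 6.2 against 6 for all 6737 such peaks. They include a Foxp1 peak that covers a TSS of the reference, and the 30 forkhead peaks beyond 5 kb of every curated TSS of the gene had 6.18. By gene, the best promoter peak had a median enrichment of 8.93 over the 35 forkhead genes with one, against 6.84 over all coding genes with a promoter peak, 9.27 over Sox, 8.93 over T-box and 7.93 over Pax genes. Forkhead promoter peaks were also longer, at a median of 2500 bp where all had 1950 bp. They held a median of 69.4 treatment reads against 52.6 and of 21.4 input reads against 17. Per kb of peak, their median treatment reads were 27, against 26.8 for all promoter peaks. A length of 3000 bp or more was reached by 19 of the 43, or 44.2%, against 13.5% of all promoter peaks. Among promoter peaks of that length, the median enrichment was 8.93 for the forkhead peaks and 7.6 for all, and among shorter ones 7.63 and 6.61.

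**Figure D2:**
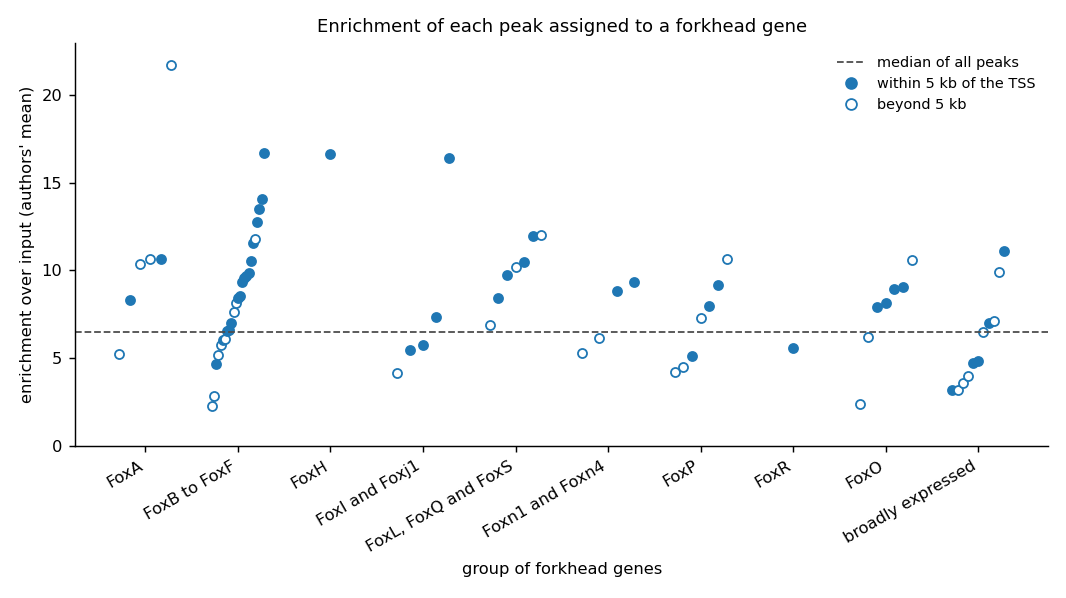
Enrichment over input (authors' mean, vertical axis from 0) of each of the 74 peaks, by group of forkhead genes. Filled points are peaks within 5 kb of the TSS by the deposited distance, open points lie beyond, and the dashed line is the median of all peaks, 6.5; in the broadly expressed group 3 of 5 genes with a promoter peak have their best below that line.

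**Figure D3:**
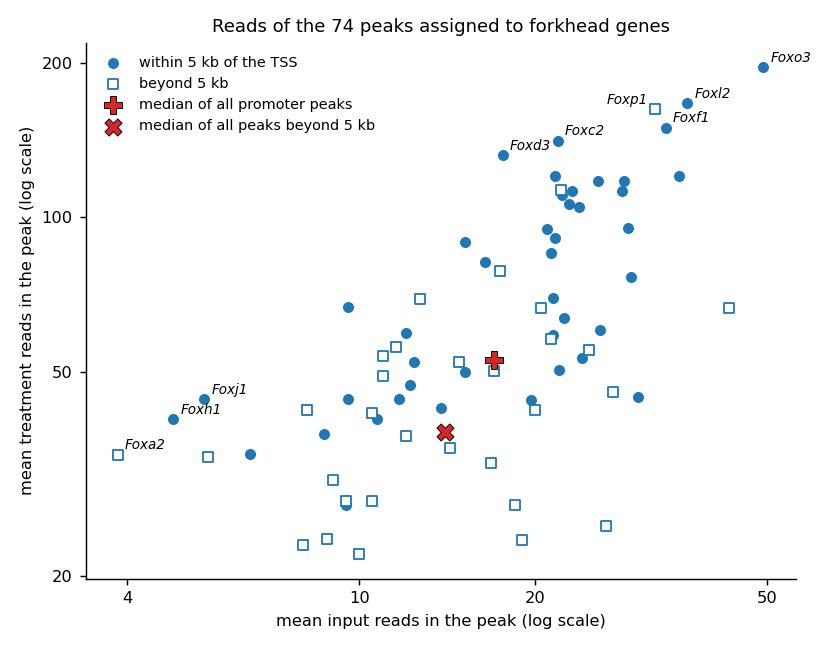
Mean treatment reads against mean input reads (both log scales) of the 74 forkhead peaks, with the medians of all promoter peaks and of all peaks beyond 5 kb as red marks. Foxo3 lies highest with 196 treatment reads, while Foxa2, Foxj1 and Foxh1 lie at the left with 3.86, 5.43 and 4.8 input reads.

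An assigned peak covered a TSS of its own gene in 33 of the 43 forkhead genes, or 76.7%, against 9039 of the 21000 coding genes. The centre lay downstream of the TSS in 37 of the 43 promoter peaks, or 86.0%, against 77.2% of the 10141 promoter peaks of coding genes. It fell in a coding exon of the gene in 18, in an intron in 11, in the 5' UTR in 5 and outside the transcript in 9. As shares these were 41.9, 25.6, 11.6 and 20.9%, against 21.3, 30.3, 28.4 and 19.6% for coding genes. Over all 74 forkhead peaks, 33 were centred outside the transcript, or 44.6%, against 36.9%. For 22 forkhead genes, at least 90% of the coding sequence lay inside peaks of the list, or 51.2%, against 5.33% of all coding genes. The other families differed from each other in this count, at 11 of 19 Sox genes, 1 of 17 T-box genes and 0 of 9 Pax genes. The Sox share, 57.9%, was like that of forkhead genes, while the T-box share was 5.88%. Among forkhead genes it differed with gene structure, a comparison made after the values were seen. Of the forkhead genes, 15 have a single coding exon, and 13 of these had their coding sequence covered to this extent, against 14.6% of all genes with 1 coding exon. Of the 28 with more than 1 coding exon, 9 were covered to this extent, or 32.1%, against 3.64% of all such genes. Among genes with 1 coding exon and a promoter peak, the share was 13 of 13 for forkhead genes and 63.0% for all 662 such genes. Among genes whose coding sequence spans at most 3000 bp and that have a promoter peak, it was 17 of 18 and 51.1% of 1397. Foxh1 was the exception among the 18.

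**Figure D4:**
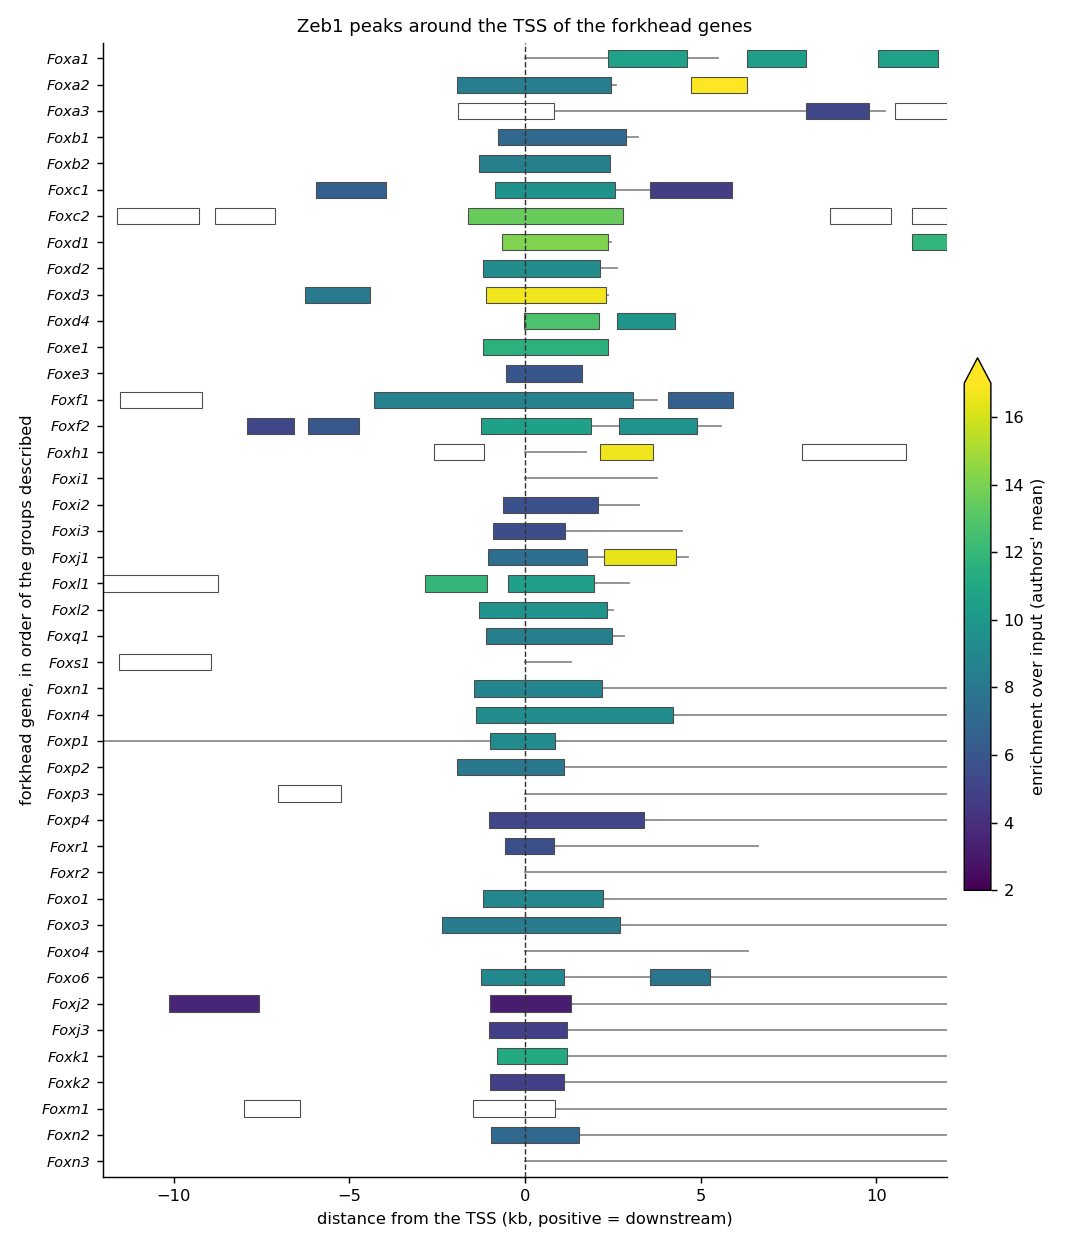
Peaks (boxes) around the TSS of each forkhead gene, by distance from the TSS in kb with positive values downstream; grey lines are the gene bodies, colour gives the enrichment over input, and white boxes are peaks assigned to another gene. Foxb2, Foxc2, Foxd4 and Foxe1 lie wholly under 1 box, and Foxi1, Foxo4, Foxr2 and Foxn3 have no box in the window.

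FoxA genes encode the pioneer factors of endoderm, and all 3 had an assigned peak. At Foxa2, which is needed for the node, notochord and definitive endoderm, the peak at chr2:148043001-148047400 (mm10) covered the whole coding sequence. It was centred in the intron of the gene, 264 bp downstream of the TSS, and had 105 treatment reads against 23.8 in the input, for an enrichment of 8.32. A second Foxa2 peak, at chr2:148039151-148040750, lay past the 3' end of the gene, 5514 bp downstream of the TSS. Its enrichment of 21.7 was the highest of all forkhead peaks, above 99.0% of the list, on only 34.4 treatment and 3.86 input reads. Its single match of the Zeb1 motif [CT]N[CT]ACCTG is shown in capitals within 200 bases of the peak, at chr2:148040040-148040239 on the forward strand of GRCm38, outside any curated transcript. The stretch is given because it carries the highest enrichment of the family.
Foxa2 peak: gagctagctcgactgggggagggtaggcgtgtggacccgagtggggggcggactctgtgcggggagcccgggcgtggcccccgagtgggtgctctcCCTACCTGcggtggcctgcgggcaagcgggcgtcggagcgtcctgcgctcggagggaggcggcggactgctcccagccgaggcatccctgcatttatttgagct

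Foxa1, which shares the pioneer role in liver, lung and prostate, had 3 peaks, none of which covered its TSS. The nearest, at chr12:57541501-57543750, was centred 3486 bp downstream of the TSS in the reference, in coding sequence of exon 2 of 2. It had 81.6 treatment reads against 16.4 in the input, for an enrichment of 10.7. The other 2 followed past the gene, 7161 and 10911 bp downstream, with enrichments of 10.4 and 10.6, so that all 3 lay within a narrow range. Foxa3, a regulator of liver metabolism, had 1 assigned peak on its last exon, at chr7:19013751-19015550, with an enrichment of 5.21 and its centre 8889 bp from the TSS. The TSS of Foxa3 was covered by another peak, at chr7:19022701-19025450, which the authors assigned to the neighbour Sympk. That peak was centred 536 bp upstream of Foxa3 and had 84.4 treatment reads against 25.1 in the input, for an enrichment of 7.66.

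The FoxB to FoxF genes pattern the neural tube, neural crest, eye, kidney and mesoderm. All 12 had a promoter peak, and in all 12 the coding sequence lay wholly inside peaks. Their best promoter peaks had a median enrichment of 10.1, from 6.01 at Foxe3 to 16.7 at Foxd3. Foxd3 keeps epiblast and neural crest cells in a multipotent state. Its peak at chr4:99655201-99658600 was centred in the only exon, 601 bp downstream of the TSS, and had 132 treatment reads against 17.6 in the input, for an enrichment of 16.7, above 97.7% of the list. The 4 other Foxd3 peaks all lay upstream. The nearest, 5324 bp away, had an enrichment of 8.15, and those at 83274 and 210649 bp had 5.75 and 7.65. The one at 68224 bp, on a LINE element of the Lx8 family by the authors' annotation, had 2.85, on 27.5 treatment and 18.5 input reads, and was among the 3 lowest of the family.

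In the 250 bases before the TSS, the Foxd3 promoter was rich in CpG and held no Zeb1 motif. That of Foxn1, a thymus gene, had fewer CpG and 1 Zeb1 motif there. The 300 bp window of the promoter table, which runs on past the TSS, held 2 at Foxn1 and 0 at Foxd3. Both promoters lay in a peak. The 250 bases before each TSS are shown to set these promoters side by side, from the RefSeq promoter table for GRCm38.p6, with each CG in capitals. For Foxd3 they lie at chr4:99656049-99656298 on the forward strand and hold 21 CpG. For Foxn1 they lie at chr11:78386609-78386858, read on the reverse strand, and hold 7 CpG. The median over the 32851 promoters of the table was 6.
Foxd3 promoter: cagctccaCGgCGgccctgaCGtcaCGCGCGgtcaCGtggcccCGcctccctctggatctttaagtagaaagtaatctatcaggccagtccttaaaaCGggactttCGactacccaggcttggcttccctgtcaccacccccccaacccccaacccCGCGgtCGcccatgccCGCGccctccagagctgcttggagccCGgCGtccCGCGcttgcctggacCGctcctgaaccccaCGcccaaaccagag
Foxn1 promoter: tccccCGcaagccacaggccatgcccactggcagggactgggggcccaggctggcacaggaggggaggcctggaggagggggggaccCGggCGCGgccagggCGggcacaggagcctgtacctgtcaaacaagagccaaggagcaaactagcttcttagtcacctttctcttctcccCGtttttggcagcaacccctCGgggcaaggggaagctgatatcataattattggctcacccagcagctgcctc

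Other FoxD genes had high enrichments as well. At Foxd1, a gene of the kidney stroma and retina, the peak at chr13:98353601-98356600 covered the whole coding sequence and was centred 855 bp downstream of the TSS. The means were 66.7 treatment reads against 9.57 in the input, for an enrichment of 14.1, and no Zeb1 motif was found over its 3000 bp. A further Foxd1 peak 11930 bp downstream had 11.8. At Foxd4, the peak at chr19:24898901-24901050 was centred 1041 bp downstream of the TSS in the reference and had 89.4 treatment reads against 15.2 in the input, for an enrichment of 12.8. A neighbouring Foxd4 peak, past the gene, had 9.87. Foxd2 and its antisense transcript Foxd2os shared 1 peak over both TSSs, at chr4:114906751-114910100, with an enrichment of 9.36. All 4 FoxD genes thus had a best enrichment above the promoter median of 6.74.

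Foxc1 and Foxc2 act together in somites, vessels and the eye. The Foxc2 peak at chr8:121114551-121118950 covered the gene, was centred 579 bp downstream of the TSS and had 141 treatment reads against 21.9 in the input, for an enrichment of 13.5. At Foxc1 the best of 4 peaks, at chr13:31805801-31809200, was centred 854 bp downstream of the TSS, with 94.7 treatment reads against 21 in the input, for an enrichment of 9.57. Another 2 flanked the gene within 5 kb, at 4946 bp upstream with 6.54 and 4729 bp downstream with 4.64. The fourth, at chr13:31791201-31792750, lay on an L1_Mus3 LINE element 14671 bp upstream. With 25 treatment and 26.5 input reads, its enrichment of 2.25 was the lowest of all forkhead peaks, and only 0.568% of the list had a lower value. Foxb1 and Foxb2, genes of the hindbrain and thalamus, had single peaks over the whole coding sequence, with enrichments of 6.99 and 8.43. Foxe1, a thyroid factor, had 11.6, and Foxe3, a lens factor, had 6.01, in each case on the only exon.

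Foxf1 and Foxf2 act in lateral mesoderm and the gut wall. The Foxf1 peak at chr8:121080101-121087450 was the longest of the family at 7350 bp, and 99.5% of all peaks were shorter. It was centred 611 bp upstream of the TSS, had 149 treatment reads against 33.5 in the input, for an enrichment of 8.57, and also covered a TSS of Fendrr, the long non-coding RNA transcribed away from Foxf1. A further Foxf1 peak 4989 bp downstream had 6.58. At Foxf2 the best of 4 peaks, at chr13:31624551-31627700, was centred 309 bp downstream of the TSS, in coding sequence of exon 1 of 2, with 110.4 treatment reads against 22.2 in the input, for an enrichment of 10.6. A peak in its intron had 9.69, and those at 5441 and 7241 bp upstream had 6.1 and 5.2.

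Several of these genes lie in clusters, which were singled out after their values were seen. Foxf1, Foxc2 and Foxl1 lie within 46.3 kb on chromosome 8. With 10 kb on either side, this region held 8 peaks, 5 of them assigned to the forkhead genes, and peaks took up 34.2% of its length. That amounts to 121 peaks per Mb, against 10.2 over the chromosome. The other 3 were assigned to Fendrr and Mthfsd, with enrichments of 7.16, 4.3 and 8.71. Foxq1, Foxf2 and Foxc1 span 252 kb on chromosome 13, and all 9 peaks there were assigned to them, or 33 per Mb against 4.95 over the chromosome. The peaks were grouped at the genes, and the long stretch between Foxf2 and Foxc1 held none over most of its length. Foxd2 and Foxe3, 19.8 kb from end to end on chromosome 4, each had 1 peak.

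**Figure D5:**
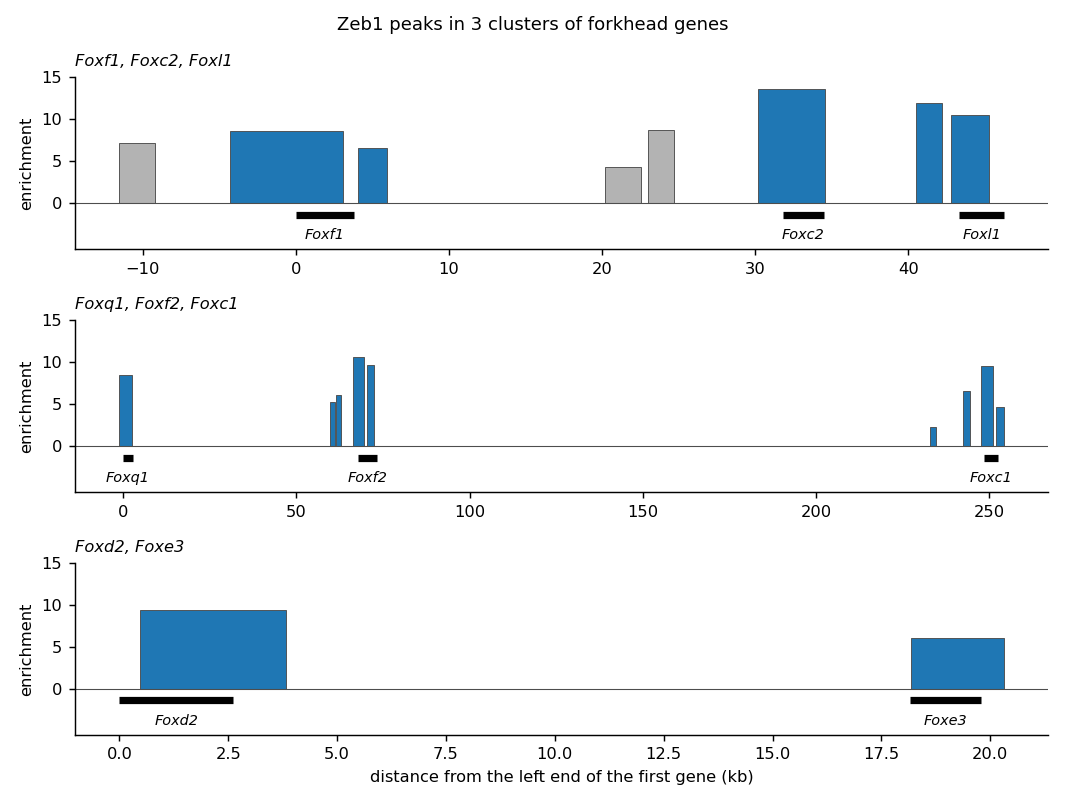
Peaks in the 3 forkhead clusters, as bars from 0 whose height is the enrichment over input and whose width is the length of the peak, by distance from the left end of the first gene in kb; blue bars are assigned to forkhead genes, grey bars to Fendrr or Mthfsd, and black lines are the genes. The tallest bar, 13.5, stands over Foxc2.

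Foxh1 carries Nodal signals to the genome with Smad2 and Smad3. It had 1 assigned peak, at chr15:76666301-76667800, centred 2898 bp downstream of the TSS. Its enrichment of 16.7, on 40.4 treatment and 4.8 input reads, stood, like the Foxd3 peak, above 97.7% of the list. The peak did not touch Foxh1 but ended 424 bp past its 3' end, and its centre lay in a coding exon of the neighbour Kifc2. It held 3 matches of the Zeb1 motif. These are shown in capitals in 30 bases each, with GRCm38 positions, since the peak with the most matches near its centre among the 5 highest enrichments is this one. The first lies at chr15:76667118-76667147 on the reverse strand, the second at chr15:76666870-76666899 on the forward strand and the third at chr15:76666557-76666586 on the reverse strand, at 82, 166 and 479 bp from the centre.
Foxh1 match a: agcccaagggaCCCACCTGcagcagcagaa
Foxh1 match b: tgcaggcacacTGCACCTGgtggacctggc
Foxh1 match c: tggaaggcagcCTTACCTGgtgcagggttt
Upstream of Foxh1, a peak assigned to Ppp1r16a was centred 1877 bp from the Foxh1 TSS, with an enrichment of 5.5.

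FoxI genes and Foxj1 serve epithelia, ionocytes and the inner ear, and Foxj1 is the master gene of motile cilia. Foxj1 had 2 promoter peaks. The one with the higher enrichment, at chr11:116331051-116333100, was centred 3279 bp downstream of the TSS, in coding sequence of exon 3 of 3, and had 44.1 treatment reads against 5.43 in the input, for an enrichment of 16.4. The other, over the TSS, had more reads, 95.4, but also 28.8 input reads, and an enrichment of 7.34. Foxi2 had 1 peak, with 5.74. Of the 2 Foxi3 peaks, the one at chr6:70955701-70957750 was centred 119 bp downstream of the TSS, with 76.6 treatment reads against 29.1 in the input, for an enrichment of 5.46. The second, 91944 bp downstream, had 4.12. Foxi1 had none.

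Among FoxL, FoxQ and FoxS genes, Foxl1 acts in the gut mesenchyme, Foxl2 in the ovary and Foxq1 in hair and stomach. Foxl2 had 167 treatment reads, the second most of the family, 36.4 input reads and an enrichment of 9.71 in a single peak at chr9:98954301-98957950, centred 518 bp downstream of the TSS. That peak also covered the TSS of the antisense transcript Foxl2os. Foxl1 had 5 peaks. The one with the highest enrichment near the TSS, at chr8:121124851-121126600, was centred 1960 bp upstream and had 34.5 treatment reads against 6.5 in the input, for an enrichment of 11.95. The peak over the gene itself had 106 treatment reads and 10.5. The other 3 lay 130390, 145815 and 187965 bp downstream, in a transcript that the authors' annotation gives as Gm26815, with 12, 10.2 and 6.9. Distance from the TSS thus did not order the enrichments of Foxl1. Foxq1 had 1 peak with 8.43.

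Foxn1, needed for thymus and hair, and Foxn4, a gene of retinal and spinal interneurons, had promoter peaks poor in CpG. The Foxn1 peak, at chr11:78384401-78388050, had an enrichment of 8.81 and 8 Zeb1 motifs over 3650 bp, with an observed to expected CpG ratio of 0.227 in the 1000 bp at the centre. The Foxn4 peak at chr5:114269551-114275150 was centred in intron 2 of 9, 1411 bp downstream of the TSS, and was 5600 bp long. It had 112 treatment reads, 23.1 input reads, an enrichment of 9.34, 10 Zeb1 motifs and a CpG ratio of 0.185. The Foxj1 peak with the higher enrichment had a like ratio, 0.234, while the median was 0.798 for forkhead promoter peaks and 0.740 for all promoter peaks. Per kb, Foxn1 and Foxn4 had 2.19 and 1.79 Zeb1 motifs, near the 2 of Foxh1 and the 1.95 of Foxi3. Further Foxn4 peaks in its intron 4 and past the gene had 6.16 and 5.3.

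FoxP proteins repress transcription in lung, brain and lymphocytes. Foxp1 is a long gene with several start sites. The peak at chr6:99027451-99029300 was centred 77 bp upstream of an internal TSS, in intron 4 of 17 of a longer transcript. It had 59.5 treatment reads against 12 in the input, for an enrichment of 9.15. A stronger peak at chr6:99519901-99524000 was listed 86605 bp from another TSS of the gene but was centred 957 bp upstream of the outermost curated TSS of the reference. Its 163 treatment reads, against 32.1 in the input, were the third most of the family, and its enrichment was 10.6. The last Foxp1 peak, on an L1Md_F2 element, had 4.2. At Foxp2, a gene of speech and motor circuits, the peak at chr6:14899401-14902450 was centred 424 bp upstream of a TSS, with 85.1 treatment reads against 21.3 in the input, for an enrichment of 8.

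The start site peaks of Foxp1 and Foxp2 held a stretch in common, which was noticed after their values were seen. From the forkhead motif TGTTTAC onward, 17 of 19 bases were the same, TGTTTACNNAGCAGGTGGA, and the stretch includes a reverse strand match of the Zeb1 motif. Searched on both strands, these letters were found in 2 of the 17435 peaks, or 0.0115%, those of Foxp1 and Foxp2. The letters were taken from these 2 peaks, so both matches were fixed before the search, and the count is no test of the pair. In Foxp1 the stretch lies 2034 bp upstream of the TSS, at chr6:99523006-99523036 on the reverse strand of GRCm38, and in Foxp2 380 bp upstream, at chr6:14900960-14900990 on the forward strand. The capitals mark the 19 bases.
Foxp1 stretch: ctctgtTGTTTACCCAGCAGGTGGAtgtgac
Foxp2 stretch: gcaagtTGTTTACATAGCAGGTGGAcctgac

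Foxp4 had 3 assigned peaks of lower enrichment. Its promoter peak at chr17:47921251-47925650 was centred in intron 1 of 16, 1182 bp downstream of the TSS, with 53.1 treatment reads against 24.1 in the input, for an enrichment of 5.14. The others had 7.29 in intron 2 and 4.49 at 50543 bp upstream. Within the gene lay 2 more peaks that the authors assigned to Mdfi. The one in intron 7 of 16, at chr17:47876901-47879500, had an enrichment of 13.9 on 68.4 treatment reads and 10 input reads, above that of any peak assigned to a FoxP gene. Foxp3, the factor of regulatory T cells, had none.

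FoxO proteins are held in the cytoplasm by Akt when insulin or growth factors act, and otherwise switch on genes of cell cycle arrest and stress resistance. Foxo3 had the most treatment reads of all forkhead genes. Its peak at chr10:42274001-42279050 was 5050 bp long, was centred in intron 1 of 3, 170 bp downstream of the TSS in the reference, and had 196 treatment reads against 49.2 in the input, for an enrichment of 8.16. A second Foxo3 peak lay on coding sequence of exon 3 of 4, with 6.2. The Foxo1 peak at chr3:52267151-52270550 was centred 513 bp downstream of the TSS, in coding sequence of exon 1 of 3, with 91 treatment reads against 21.7 in the input, for an enrichment of 8.93. The other Foxo1 peak, at chr3:52232001-52233100 on an IAPEz-int element, had 23.5 treatment and 19 input reads and an enrichment of 2.4, the second lowest of the family. Foxo6, a gene of the brain, had 3 peaks. The best within 5 kb, at chr4:120286151-120288500, had its centre 64 bp upstream of the TSS and held 52.1 treatment reads against 12.4 in the input, for an enrichment of 9.04. A peak on exon 2 of 2 had 113 treatment reads and 10.6. The 3 FoxO promoter peaks over a TSS thus lay in a narrow range of enrichment, from 8.16 to 9.04, while their reads ranged from 52.1 to 196.

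Forkhead motifs lay upstream of Foxo1 and Foxo3 inside these peaks, while the 3 Foxo6 peaks held none. Over whole peaks the motif was present in 15.5% of the list, and in 25.9% of all promoter peaks of 3000 bp or longer. The Foxo1 and Foxo3 peaks over the TSS are of that length, at 3400 and 5050 bp. The matches nearest upstream of each TSS are shown, in capitals with 11 bases on either side, because FoxO proteins recognise such letters and the peaks cover them. The Foxo1 match lies 270 bp upstream of the TSS, at chr3:52268053-52268081 on the reverse strand of GRCm38, and the Foxo3 match 1585 bp upstream, at chr10:42278266-42278294 on the forward strand.
Foxo1 match: taccatactttTGTTTACtacagagtgca
Foxo3 match: gctggcgcgctTGTTTACcagcacacgtg

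Foxj2, Foxj3, Foxk1, Foxk2, Foxm1, Foxn2 and Foxn3 were grouped as broadly expressed from general knowledge, since expression was not measured here. The FoxO and FoxP groups hold widely expressed genes as well. Of the 7 genes, 5 had a promoter peak, with a median enrichment of 4.84 for the best. The Foxj2 peak at chr6:122819201-122821500 was centred in the 5' UTR, 166 bp downstream of the TSS, with 44.6 treatment reads and 30 input reads. Its enrichment of 3.19 was the lowest of the best promoter peaks of the family, and 5.95% of the list lay below it. Further Foxj2 peaks 8859 and 18509 bp upstream had 3.6 and 6.48. Foxj3 had 4.84, and Foxk2, whose product binds the deubiquitinase Bap1, had 4.73. At Foxn2 the promoter peak at chr17:88439751-88442250 was centred 296 bp downstream of the TSS in the reference, with 69.4 treatment reads against 21.4 in the input, for an enrichment of 6.99. A further Foxn2 peak, on an L1Md_F2 element 131354 bp upstream, had 3.2. Foxk1, a repressor that works with Sin3, stood apart. Its promoter peak at chr5:142400701-142402700 was centred 203 bp downstream of the TSS, in coding sequence of exon 1 of 9, with 44.3 treatment reads against 9.57 in the input, for an enrichment of 11.1. Further Foxk1 peaks 33597 and 188847 bp upstream had 9.92 and 4. In the promoter peaks of Foxj2, Foxk1 and Foxk2, the treatment reads, at 44.6, 44.3 and 44, were nearly equal, so their enrichments were ordered by the input reads, of 30, 9.57 and 19.7. Foxn3 had 1 peak 57274 bp downstream of its TSS, in intron 1 of 5, with 7.12.

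The 6 genes without an assigned peak were Foxi1, Foxm1, Foxo4, Foxp3, Foxr2 and Foxs1. Foxm1, which drives genes of mitosis, was not free of Zeb1 reads. A peak at chr6:128361501-128363850 covered its TSS and was centred 319 bp upstream, but the authors assigned it to Rhno1, which starts close by on the opposite strand. It had 70 treatment reads against 20 in the input, for an enrichment of 7.8. Foxo4, Foxp3 and Foxr2 are the 3 forkhead genes on chromosome X, where 20.6% of all coding genes had an assigned peak. Foxp3 had its nearest peak 5226 bp away, assigned to Ppp1r3fos, with 48.3 treatment reads against 9 in the input, for an enrichment of 11.6. For Foxo4 the nearest, assigned to Dlg3, lay 388528 bp away with 43.3 treatment and 9 input reads and 10.1, and for Foxr2 that of Shroom2 lay 348288 bp away with 50 treatment and 8 input reads and 11.7. Foxs1, a gene of pericytes, had the peak of Dusp15 at 8943 bp, with 62.1 treatment and 11.1 input reads and an enrichment of 12.2. Foxi1, a gene of ionocytes and the inner ear, was 360091 bp from the nearest peak, that of Kcnip1, with 28.5 treatment and 12.5 input reads and an enrichment of 4.5. Foxr1, on an autosome, had a peak of 27.5 treatment reads and an enrichment of 5.6 near its TSS.

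The peaks were searched on both strands for the Zeb1 motif and the forkhead motif in the 1000 bp at the centre, so that the length of a peak did not enter. The motif [CT]N[CT]ACCTG was found in 34 of the 74 forkhead peaks, or 45.9%, and in 55.4% of all peaks. Among promoter peaks the shares were 44.2% and 53.0%. Of the 5 forkhead genes with the highest enrichments, the peaks of Foxd3, Foxd1 and Foxj1 had no match in the 1000 bp, the Foxa2 peak had 1 and the Foxh1 peak 3. In the 200 bp at the centre the shares lay close together, at 17.6% of forkhead peaks and 16.7% of all peaks, and at 6 of 43 forkhead promoter peaks and 14.7% of all promoter peaks. The core CACCTG was in 18.9% and 21.8% of peaks there, and no test of these differences was made. Over the whole peak, 74.3% of forkhead peaks and 76.8% of all peaks had a match. Base composition differed as well. The median GC content of the 1000 bp was 67.6% in forkhead promoter peaks and 62.1% in all promoter peaks.

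The forkhead motif TGTTTAC was found in the 1000 bp at the centre in 8 of the 74 forkhead peaks, or 10.8%, and in 6.01% of all peaks. These 8 were 2 peaks of Foxa1, 2 of Foxn4 and 1 each of Foxf2, Foxi2, Foxo1 and Foxp2. Over the whole peak the shares were 28.4% and 15.5%, with forkhead peaks being longer. In the 300 bp promoter table, 28 forkhead genes were represented by 33 windows. The Zeb1 motif was present in 8 of these, or 24.2%, against 16.9% of all 32851 windows, and TGTTTAC in 1, or 3.03%, against 3.65%. That 1 window was the promoter of Foxa1, which also held a Zeb1 motif and lay in no peak.

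Other genes of forkhead pathways, 42 genes chosen by their roles, had an assigned peak in 34 cases, or 81.0%, against 53.3% of all coding genes, and a promoter peak in 31, or 73.8%, against 45.1%. Their best promoter peaks had a median enrichment of 7.87, against 6.84 for all coding genes with one. Of the 16 inputs and partners of FoxO proteins, 12 had a promoter peak. Akt1, the kinase that phosphorylates FoxO, had the highest of all 42 with 19.2, on 50 treatment and 7 input reads. Sirt1 and Crebbp, which deacetylate and acetylate FoxO, had no assigned peak. Of the 8 FoxO targets, 5 had a promoter peak, among them Cdkn1a with 11, Bcl2l11 with 10.5 and Cdkn1b with 5.66. All 6 cell cycle targets of Foxm1 had 1, with a median of 5.55, below the 6.84 of all coding genes, from 3.8 at Ccnb1 to 11.6 at Cdc25b. Of the 12 partners of Foxh1, FoxK and FoxP proteins, 8 had a promoter peak, among them Smad3 with 9.67 and the corepressor Tle3 with 11.1 on 216 treatment reads.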

How the data were processed

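Zeb1 ChIP-seq and input libraries of mESC in GS were processed by the authors. They trimmed the reads, drew an equal number per library, aligned them to mm10 with STAR (2.4.2a), removed duplicates with Picard (1.136), called peaks on each ChIP library against the input with PeakRanger, unified those of at least 2 libraries and annotated them with HOMER (4.7), versions being those of the submitters' notes. The deposited signal of treatment and of input is a mean of reads per peak, averaged by the authors. The paper states that coverage was scaled to equal depth, but the deposited means do not have the form of scaled reads. At the lowest Foxc1 peak, 25 treatment and 26.5 input reads stand beside an enrichment of 2.25. Treatment and input reads are therefore not taken to be on the same scale. How many values entered the mean of a given peak is not stated. The deposited enrichment is a ratio of treatment over input, averaged by the authors. The deposited p-value was not used.

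Assignment and positions came from the list. Genes and sequence came from GRCm38.p6 RefSeq, the same assembly as mm10, with its NM transcripts. Deposited and recomputed distances to the TSS were within 2 bp for 62 of the 74 forkhead peaks, and elsewhere the recomputed distance is given, while promoter peaks were taken by the deposited one. Positive distances lie downstream. All 43 genes were counted. Full values were given for the best promoter peak of genes with several peaks, the 5 highest enrichments, the 5 with most treatment reads, the 3 longest and 3 lowest peaks, and genes without an assigned peak. Members and lists were chosen with earlier results of these data known. The motif search was tested on simulated data. Work was done in Python 3.11.15 with pysam 0.24.0, pandas 2.3.3, Matplotlib 3.10.9, SciPy 1.17.1 and NumPy 2.4.6. Alternatives were other distances, limits, motifs and windows.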

Additional observations from a re-analysis of the deposited data

How the results depend on the processing

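The number of forkhead genes with an assigned peak was 37 and ranged from 35 with an enrichment of at least 5, or with at least 40 treatment reads, to 38 with peaks overlapping the gene or its 5 kb flanks. Over all coding genes these limits gave 43.6, 41.1 and 58.1%. Genes with a promoter peak ranged from 29 within 1 kb, where all coding genes had 41.1%, over 32 with an enrichment of at least 5, where they had 37.0%, to 37 with any peak near a TSS, where they had 51.5%, and assigned peaks from 57 to 74. The median enrichment was 8.07, 8.93 for the best peak of each gene and, a setting chosen after seeing the data, 7.65 without chromosomes 8 and 13. The share of forkhead peaks with the Zeb1 motif depended on the window, at 45.9% in 1000 bp, 17.6% in 200 bp and 74.3% in whole peaks, against 55.4, 16.7 and 76.8% of all peaks. The share with the forkhead motif was 10.8%, 70.3% with TGTTT and 28.4% in whole peaks, against 6.01, 75.5 and 15.5%. Longer windows and shorter motifs hold more matches by construction. No paired analysis was possible because the list holds no value per library, and fits leaving out a library were not run for the same reason. Reads without a unique position were not used by the authors, and the depth of each library is not in the list.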

Other observations

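Peaks on forkhead genes shared by a neighbour depend on the assignment. Besides Sympk at Foxa3 and Rhno1 at Foxm1, the list gave peaks inside or near Foxj2 and Foxk1 to other genes. A peak in exon 7 of 11 of Foxj2 was assigned to Mir7231, with an enrichment of 4.5. A peak of 3600 bp in intron 2 of 8 of Foxk1, with 16 Zeb1 motifs and an enrichment of 5, was assigned to Ap5z1.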
